A study of Mus musculus with 8 samples.

Results

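The genes described here encode 5 families of oxidoreductases in mouse liver: aldehyde dehydrogenases (Aldh), alcohol dehydrogenases (Adh), flavin-containing monooxygenases (Fmo), aldehyde oxidases (Aox) and the aldo-keto reductases of family Akr1. Members were taken by name from the non-control probes of the array, as names starting with Aldh, Adh, Fmo or Aox and a number, or with Akr1, a letter and a number, and Akr1b8 was left out. The rule gave 95 of 56605 probes, which carry 53 of the 36666 names on the array. Livers came from male mice of 8 weeks (young, n = 4) and 80 weeks (old, n = 4), and all 8 had been taken 8 h after acetaminophen, so treatment and time were shared by both groups. The labels give neither dose nor strain, and they do not say whether each sample was a separate animal, so p-values reflect the variation among these samples alone, and that could be technical. Total RNA was hybridised to single-colour Agilent arrays. No untreated liver was analysed here, and an age difference at rest cannot be told apart from one in the response to the drug.

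These enzymes carry out much of the oxidation and reduction in liver that the cytochromes P450 do not. Alcohol dehydrogenases turn alcohols and retinol into aldehydes, aldehyde dehydrogenases turn aldehydes into acids, and aldo-keto reductases run carbonyls of sugars, steroids and lipid breakdown back to alcohols. Flavin-containing monooxygenases add oxygen to nitrogen and sulfur in drugs and food compounds, and aldehyde oxidases, which carry a molybdenum cofactor, oxidise aldehydes and nitrogen-containing rings. Many of these genes lie in clusters of neighbouring copies.

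A gene entered the test if any probe of it was detected (well above background) on 4 or more arrays, and the brightest such probe stood for it. This left 41 of the 53 members: 17 of 21 Aldh, 5 of 7 Adh, 4 of 7 Fmo, 2 of 4 Aox and 13 of 14 Akr1 genes. The 12 that did not pass were Aldh18a1, Aldh1a2, Aldh1l2, Aldh3b2, Adh6a, the pseudogene Adh6-ps1, Fmo4, Fmo6, Fmo9, Aox2, Aox4 and Akr1c21. Among these, the single probe of Aldh18a1, which makes the precursor of proline, was well above background on 3 young and 0 old arrays. The filter passes a gene that is bright in 1 group only, so counts over the 41 are not counts over all 53.

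The liver label was checked against 9 hepatocyte genes. Of these, 8 were above background on all 8 arrays and Tf was not tested. Between 43.3% and 50.4% of probes per array were well above background. Young replicates 1 and 2 stood apart from the other 6 arrays on the first principal component over all tested genes (-61.3 and -99.2, against 10.2 to 47.5 elsewhere). The larger differences are therefore also given without these 2, which leaves 2 young arrays. On the slide, row 1 held the young and row 2 the old samples, and age cannot be told apart from row.

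Promoter stretches are shown for 4 members from 3 gene clusters whose young and old arrays did not overlap, 3 of them brighter and 1 (Akr1c19) dimmer in old livers. Each is the 120 bases that lead up to the transcript start of the RefSeq promoter table (build GRCm38.p6), written 5′ to 3′ on the gene's strand, and capitals mark the letters CCAAT or their complement ATTGG.
Adh4, chr3:138415377-138415496, + strand: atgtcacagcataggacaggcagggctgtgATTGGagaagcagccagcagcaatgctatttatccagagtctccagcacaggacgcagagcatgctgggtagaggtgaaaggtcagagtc
Aox3, chr1:58113016-58113135, + strand: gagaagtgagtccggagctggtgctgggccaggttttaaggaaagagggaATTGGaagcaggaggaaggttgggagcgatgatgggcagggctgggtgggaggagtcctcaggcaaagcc
Akr1c6, chr13:4434223-4434342, + strand: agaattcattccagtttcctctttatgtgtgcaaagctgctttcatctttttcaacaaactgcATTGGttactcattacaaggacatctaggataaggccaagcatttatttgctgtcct
Akr1c19, chr13:4233620-4233739, + strand: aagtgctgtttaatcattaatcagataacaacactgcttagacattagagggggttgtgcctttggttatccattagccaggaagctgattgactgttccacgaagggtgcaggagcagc
In the RefSeq gene table these genes begin farther upstream, and the start used lies 41 bases inside the annotated gene for Adh4, 1 for Aox3, 32 for Akr1c6 and 237 for Akr1c19, and the Akr1c19 stretch lies wholly within the gene. The motif begins 90, 70 and 57 bases before the end of the printed stretch in Adh4, Aox3 and Akr1c6, and it is not in that of Akr1c19, where a match lies farther upstream. Over the 250 bases before the start, on both strands, CCAAT was found in any entry of 20 of the 32 tested members that have one (62.5%) and in 33.8% of all 32851 promoters of that length. TATAAA was found in 5 members (15.6%, against 12.4% of all promoters), TTGCNNAA, a letter pattern of C/EBP-type sites, in 5 (15.6%, against 9.56%), and TGACNNNGC, the core of the antioxidant response element, in 1 (3.12%, against 10.2%). Members were counted as genes and the background as promoter entries, for every motif. A gene with several entries has more chances of a match, so the 2 shares are not measured alike. Matches of different motifs were counted separately, also where they overlap. A match describes letters only, and the motifs were chosen with the values known.

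Values are log2 intensity relative to the 75th percentile of each array, and differences are 80-week minus 8-week. No level is set against that of another gene, since each probe has its own brightness. By limma, 0 of the 41 tested members passed an adjusted p of 0.05, where 0.359% of all 17565 tested genes did (0.330% higher and 0.0285% lower). Without adjustment, 12 members were higher and 5 lower at p under 0.05, against 7.91% and 6.14% of all genes. Positive differences were found in 29 of 41, against 52.0% of all genes, and the median difference was 0.46 against 0.02. The young and old arrays did not overlap for 11 members: 8 were higher in old livers (background 4.62%) and 3 lower (3.76%). In bulk liver, fewer cells of a type and less RNA per cell cannot be told apart. The plot of differences by family shows that most of the positive values shrank without young replicates 1 and 2. Of the 41, 1 member then passed (background 0.0797%). The median over members was then -0.01, with 20 positive and 21 negative, where the median over all genes was -0.06.

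**Figure D1:**
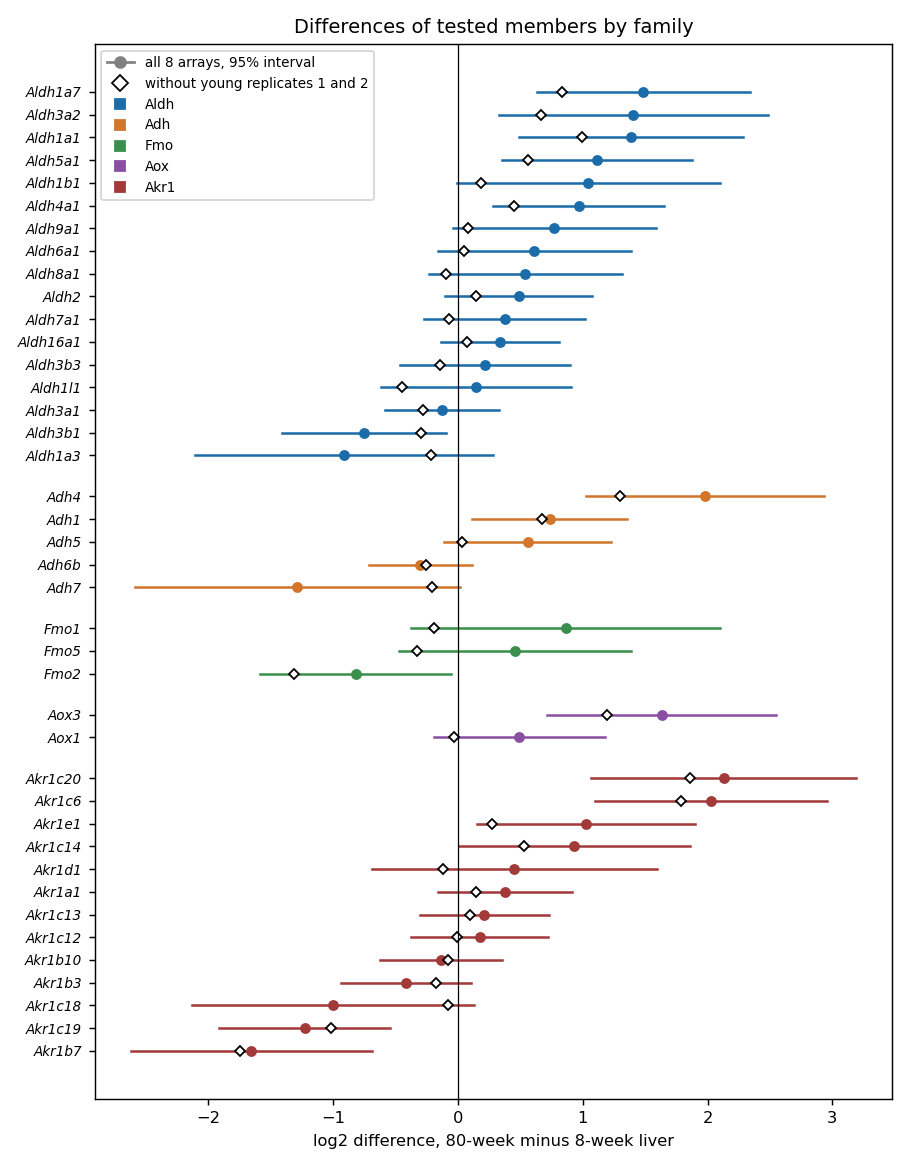
Log2 difference (80-week minus 8-week) of the tested members described here, grouped by family. Filled points and lines give the estimate over 8 arrays with its 95% interval, and open diamonds the estimate without young replicates 1 and 2, where the median over members lies at -0.01.

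Among the aldehyde dehydrogenases, differences were positive for 14 of 17 tested genes and the median was 0.54. The 3 genes with the smallest p were Aldh1a7, Aldh1a1 and Aldh5a1, and none passed adjustment. Aldh1a1, the main cytosolic enzyme that oxidises retinaldehyde, read 6.87, 5.91, 6.77 and 7.57 in young livers and 7.42, 7.86, 8.75 and 8.63 in old ones. Young replicate 4 lay above old replicate 1, so the groups overlapped, and the difference was 1.39 (SE 0.40, adjusted p = 0.231). Aldh1a7, a close rodent relative of Aldh1a1 on the same chromosome, read 4.50, 3.92, 5.21 and 5.82 in young and 6.07, 6.44, 6.69 and 6.18 in old livers. Every old array lay above every young one (difference 1.48, SE 0.38, adjusted p = 0.173). Binding of one copy's RNA to the other's probe was not tested. Aldh1a7 had its probe at chromosome 19, 20767553 to 20767612 (mm9).

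Enzymes of amino acid breakdown in the mitochondrion are given together here by function, not by their values. Aldh5a1, which oxidises succinic semialdehyde from GABA, read 1.80, 1.01, 2.44 and 2.60 in young and 3.0, 2.78, 3.21 and 3.30 in old livers, without overlap (1.12, SE 0.34, adjusted p = 0.252). Aldh4a1, of proline breakdown, also had no overlap and a difference of 0.97 (SE 0.31). Aldh6a1, of valine and thymine breakdown, differed by 0.61, and Aldh7a1, of lysine breakdown, by 0.37. Without young replicates 1 and 2 the values were 0.56 for Aldh5a1, 0.45 for Aldh4a1, 0.05 for Aldh6a1 and -0.07 for Aldh7a1. All 4 values were thus closer to 0.

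Aldh2, the mitochondrial enzyme that clears acetaldehyde, read 8.07, 7.30, 8.28 and 8.47 in young and 8.38, 8.52, 8.74 and 8.42 in old livers. Young replicate 4 lay within the old range and young replicate 2 was the lowest array, and the difference was 0.49 (SE 0.26, 95% interval -0.10 to 1.07, adjusted p = 0.416). It was 0.14 without young replicates 1 and 2. Aldh3a2, the microsomal enzyme for long-chain fatty aldehydes, read 4.19, 3.49, 5.30 and 5.34 in young and 4.98, 6.10, 6.56 and 6.30 in old livers. Old replicate 1 lay within the young range, and the difference was 1.41 (SE 0.48, adjusted p = 0.291), or 0.66 without young replicates 1 and 2.

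Of the remaining members, Aldh1b1, a mitochondrial relative of Aldh2, differed by 1.05 and Aldh9a1, of carnitine synthesis, by 0.77, and these were 0.18 and 0.08 without young replicates 1 and 2. Aldh8a1, of tryptophan breakdown, differed by 0.54 (-0.10 without them), Aldh16a1 by 0.34 (0.07), Aldh3b3 by 0.22 (-0.14) and Aldh1l1, a folate enzyme, by 0.15 (-0.45). The 3 negative differences were Aldh1a3, another retinaldehyde dehydrogenase, at -0.91 (-0.21 without them), Aldh3b1 at -0.75 (-0.30) and Aldh3a1 at -0.13 (-0.28). Aldh3b1 was the only one of the 3 without overlap, at 1.34, 2.0, 0.80 and 0.73 in young and 0.71, 0.24, 0.36 and 0.56 in old livers, and the closest pair was 0.73 and 0.71. Its arrays are listed because of that separation, a choice made with the values known. The second tested probe of Aldh16a1, above background on 2 young and 2 old arrays, gave -0.05. That of Aldh1l1 gave 1.04.

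In the alcohol dehydrogenases the values ran in both directions. Adh4, the class II enzyme that acts on retinol and longer alcohols, had the largest difference. It read 3.44, 2.20, 3.84 and 4.51 in young and 5.33, 5.29, 5.72 and 5.57 in old livers. The old arrays spanned 5.29 to 5.72 and lay above every young array (1.98, or 3.94-fold, SE 0.42, adjusted p = 0.118). Its adjusted p ran from 0.0434 (with array weights) to 0.342 over the alternatives. It was 0.0457 without young replicate 4, and 0.202 without young replicates 1 and 2, where the difference was 1.30. Its only probe lies at chromosome 3, 138093716 to 138093775 (mm9).

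Adh1, the class I enzyme that oxidises ethanol, read 7.62, 6.83, 7.05 and 7.66 in young and 7.52, 7.91, 8.46 and 8.21 in old livers. The ranges overlapped through old replicate 1, and the difference of 0.73 (SE 0.28, adjusted p = 0.306) was 0.67 without young replicates 1 and 2. Adh5, the class III enzyme that removes formaldehyde with glutathione, read 6.36, 6.09, 7.17 and 7.39 in young and 7.25, 7.16, 7.29 and 7.53 in old livers, and its difference of 0.56 was 0.03 without those arrays. Here the old arrays matched young replicates 3 and 4, and young replicates 1 and 2 alone were low.

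Adh7, the class IV enzyme known from stomach, was dim, being above background on 3 young and 1 old arrays. It read -0.52, -1.10, -2.85 and -3.11 in young and -3.01, -2.49, -3.36 and -3.85 in old livers (-1.29, SE 0.58, adjusted p = 0.358). Its signal was high in young replicates 1 and 2 only, and the difference was -0.20 without them. On 3 of the 4 old arrays its value is no more than a bound. Adh6b differed by -0.30 (SE 0.18).

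Among the flavin-containing monooxygenases, Fmo2 had a negative difference, and Fmo1 and Fmo5 had positive ones that depended on young replicates 1 and 2. Fmo2, best known from lung, read 0.01, 0.44, 1.52 and 0.91 in young and 0.21, -0.69, 0.05 and 0.04 in old livers (-0.82, SE 0.34, adjusted p = 0.340). The groups overlapped over all arrays, but not without young replicates 1 and 2, where the difference was -1.31. Fmo1 read 1.83, 0.96, 3.49 and 3.52 in young and 2.81, 3.20, 3.64 and 3.61 in old livers, a difference of 0.86 (SE 0.55). Over its 4 tested probes the differences ran from 0.03 to 0.91. Fmo5, which differs from its relatives in acting on ketones, read 5.68, 4.96, 6.77 and 7.02 in young and 6.46, 6.5, 6.76 and 6.53 in old livers, a difference of 0.46 (SE 0.41). Both signs turned without young replicates 1 and 2, to -0.19 for Fmo1 and -0.33 for Fmo5.

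Aldehyde oxidases had 2 tested genes, and both differences were positive. Aox3, the main aldehyde oxidase of mouse liver, read 2.02, 0.77, 1.52 and 3.02 in young and 3.48, 3.59, 3.40 and 3.39 in old livers. The old arrays spanned 3.39 to 3.59 and lay above every young array (1.63, or 3.1-fold, SE 0.41, adjusted p = 0.166). The adjusted p was 0.0336 without young replicate 4 and 0.463 without young replicates 1 and 2, where the difference was 1.2, and these were its lowest and highest over the alternatives. All 3 tested Aox3 probes had a positive difference, from 1.17 to 1.69, and the one used lies at chromosome 1, 58245203 to 58245262 (mm9). Its neighbour Aox1 read 3.48, 3.39, 4.44 and 4.52 in young and 4.27, 4.26, 4.83 and 4.44 in old livers. That difference was 0.49 (SE 0.30, adjusted p = 0.465), or -0.03 without young replicates 1 and 2. The genes that make the molybdenum cofactor of these enzymes had 4 of 5 positive differences and a median of 0.40, with 0 called and a median of 0.02 without those 2 arrays.

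**Figure D2:**
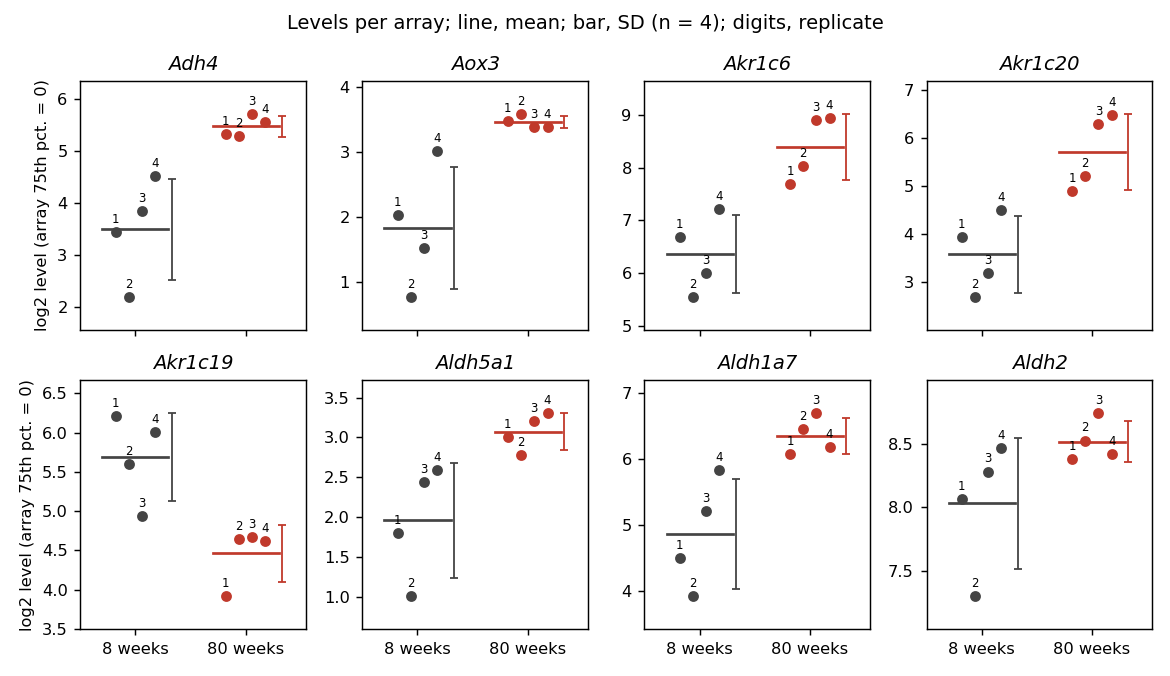
Log2 level of 8 members in each array, with the 75th percentile of the array at 0. Points are samples numbered by replicate, lines are group means and bars the SD (n = 4), and the groups are separate in each panel but that of Aldh2, where young replicate 4 (8.47) lies among the old arrays.

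The aldo-keto reductases had differences from -1.65 to 2.13 and a median of 0.21 (8 positive, 5 negative). Akr1c6, an estradiol dehydrogenase of liver, had the smallest p of all members. It read 6.69, 5.55, 5.99 and 7.21 in young and 7.69, 8.02, 8.89 and 8.94 in old livers, a 4.07-fold difference without overlap (2.03, SE 0.41, adjusted p = 0.0985). Akr1c20, its neighbour, read 3.93, 2.70, 3.19 and 4.51 in young and 4.89, 5.2, 6.29 and 6.48 in old livers, also without overlap (2.13, SE 0.47, adjusted p = 0.129). The second tested probe of Akr1c20 gave 2.27. In both genes old replicates 3 and 4 were the brightest arrays and young replicate 4 the brightest young one. The differences were 1.78 and 1.86 without young replicates 1 and 2, and neither gene passed the threshold under any alternative (lowest adjusted p = 0.0537 and 0.0724).

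Akr1c19 ran the other way. It read 6.21, 5.60, 4.94 and 6.01 in young and 3.92, 4.64, 4.67 and 4.61 in old livers, so every old array lay below every young one (-1.23, SE 0.31, adjusted p = 0.166), and the difference was -1.01 without young replicates 1 and 2. Akr1b7, an aldose reductase-like enzyme, was dim, with 4 young and 1 old arrays above background. It read -3.05, -2.13, -2.72 and -2.10 in young and -4.80, -4.51, -2.83 and -4.47 in old livers, and only old replicate 3 lay within the young range. It differed by -1.65 (SE 0.43, adjusted p = 0.182), and by -2.10 (adjusted p = 0.0398) without old replicate 3, its brightest old array. Over the alternatives the adjusted p ran from 0.0398 to 0.459. Over those that did not omit a single array, the Akr1b7 difference ran from -1.77 to -0.33. Of its old values, 3 of 4 are no more than a bound. Akr1c18, which inactivates progesterone, differed by -1.0 (SE 0.50) and by -0.08 without young replicates 1 and 2.

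For 3 further reductases the 95% interval of the difference included 0. Akr1a1, which reduces aldehydes and serves ascorbate synthesis in mice, read 7.60, 7.17, 7.72 and 7.99 in young and 7.60, 7.90, 8.23 and 8.27 in old livers (0.38, 95% interval -0.16 to 0.91). Akr1b3, the aldose reductase that makes sorbitol, read 1.56, 2.05, 1.42 and 1.22 in young and 1.41, 0.98, 0.85 and 1.33 in old livers (-0.42, 95% interval -0.94 to 0.11). Akr1d1, a reductase of bile acid synthesis, read -1.40, -2.29, -1.19 and -0.23 in young and -1.51, -1.59, -0.42 and 0.21 in old livers (0.45, 95% interval -0.69 to 1.59). The groups overlapped in each, and the interval of Akr1d1 was the widest. Akr1e1 had no overlap, with a difference of 1.03 that was 0.27 without young replicates 1 and 2. Akr1c14, a steroid reductase, differed by 0.93 (0.53 without them), Akr1c13 by 0.21, Akr1c12 by 0.18 and Akr1b10 by -0.13. The genes Akr1c12 and Akr1c13 are close copies, and signal shared between their probes was not tested.

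Genes that lie next to each other did not always share a direction, as the plot of neighbouring members shows. In chromosomal order by the RefSeq table, the tested Akr1c and Akr1e genes were Akr1c14 (0.93), Akr1c18 (-1.0), Akr1c13 (0.21), Akr1c19 (-1.23), Akr1c12 (0.18), Akr1c6 (2.03), Akr1c20 (2.13) and Akr1e1 (1.03). The adjacent pair Akr1c6 and Akr1c20 had the 2 largest positive differences of all members, while Akr1c19 between Akr1c13 and Akr1c12 had a negative one. In the Adh cluster the order was Adh7 (-1.29, dim in old livers), Adh1 (0.73), Adh6b (-0.30), Adh4 (1.98) and Adh5 (0.56). On chromosome 1, Fmo1 (0.86) and Fmo2 (-0.82) had opposite signs over all arrays, while Aox1 (0.49) and Aox3 (1.63) were both positive. Both pairs changed without young replicates 1 and 2. Fmo1 (-0.19) and Fmo2 (-1.31) were then both negative, and Aox1 (-0.03) and Aox3 (1.2) had opposite signs. Akr1c18 (-0.08), Akr1c12 (-0.0077), Adh7 (-0.20) and Adh5 (0.03) were then small, while Akr1c19 (-1.01), Akr1c6 (1.78) and Akr1c20 (1.86) kept their directions. The Akr1c6 and Akr1c20 probes lie at chromosome 13, 4456428 to 4456487 and 4486408 to 4486467, and that of Akr1c19 at 4247501 to 4247560 (mm9).

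**Figure D3:**
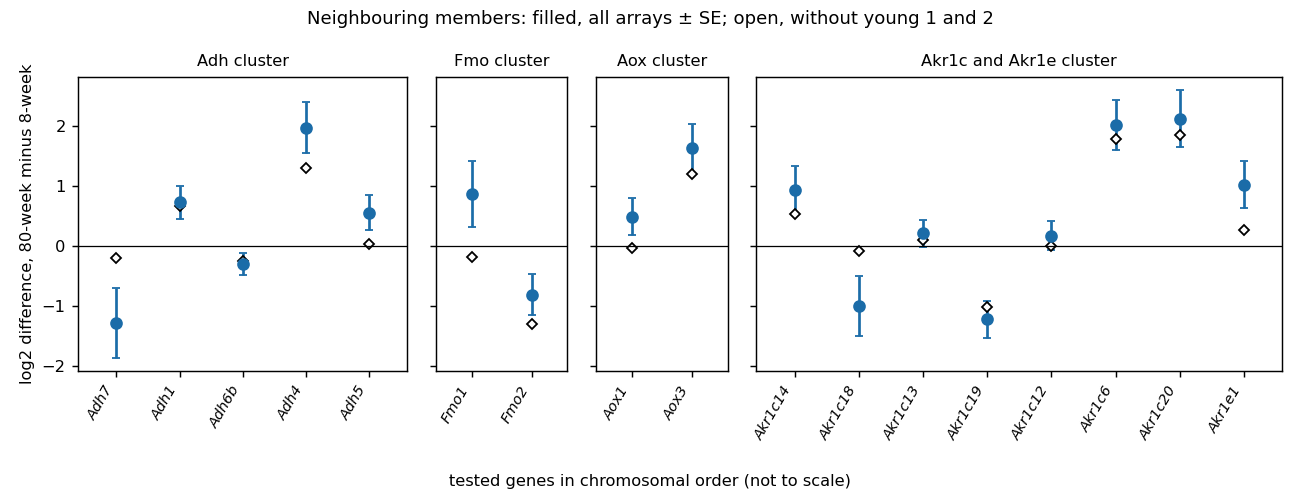
Log2 difference (80-week minus 8-week) of tested members in chromosomal order within 4 clusters. Filled points are estimates over 8 arrays with SE bars and open diamonds those without young replicates 1 and 2, and within the Akr1c cluster they run from -1.23 (Akr1c19) to 2.13 (Akr1c20).

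Of the 5 families, 4 were compared by their mean level per array, with each gene centred on its own mean. The Fmo genes are left out of this comparison and given one by one above. Over the Aldh genes this was -0.27 ± 0.49 in young and 0.27 ± 0.05 in old livers, over Adh -0.17 ± 0.26 and 0.17 ± 0.13, and over Aox -0.53 ± 0.70 and 0.53 ± 0.11 (SD, n = 4 each). Over Akr1 it was -0.11 ± 0.28 and 0.11 ± 0.39. The spread of the young arrays was thus several times that of the old ones in Aldh and Aox. Differences between families were not tested, since members are not replicates.

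Much of this spread lay between young arrays. The Aldh means were -0.44 and -0.88 in young replicates 1 and 2, against 0.06 and 0.18 in the other young arrays and 0.22 to 0.32 in old livers. Both of the former lay below both of the latter in 24 of the 41 members (13 of 17 Aldh genes), where 39.0% of all genes did, and above them in 5, where 24.1% did. The colour map of centred levels shows these blocks, and also that Akr1c6, Akr1c20 and Aldh1a1 were brightest in old replicates 3 and 4. Without young replicates 1 and 2 the family medians were 0.07 for Aldh, 0.03 for Adh, 0.58 for Aox and -0.01 for Akr1. The Aox median was that of 2 genes with opposite signs, Aox3 (1.2) and Aox1 (-0.03). Negative values, as for Aox1, were also found for Fmo1 (-0.19), Fmo2 (-1.31) and Fmo5 (-0.33). The remaining arrays did not overlap for 8 members that were higher (background 7.89%) and 8 that were lower (14.1%), counts that include by construction those without overlap over all arrays.

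**Figure D4:**
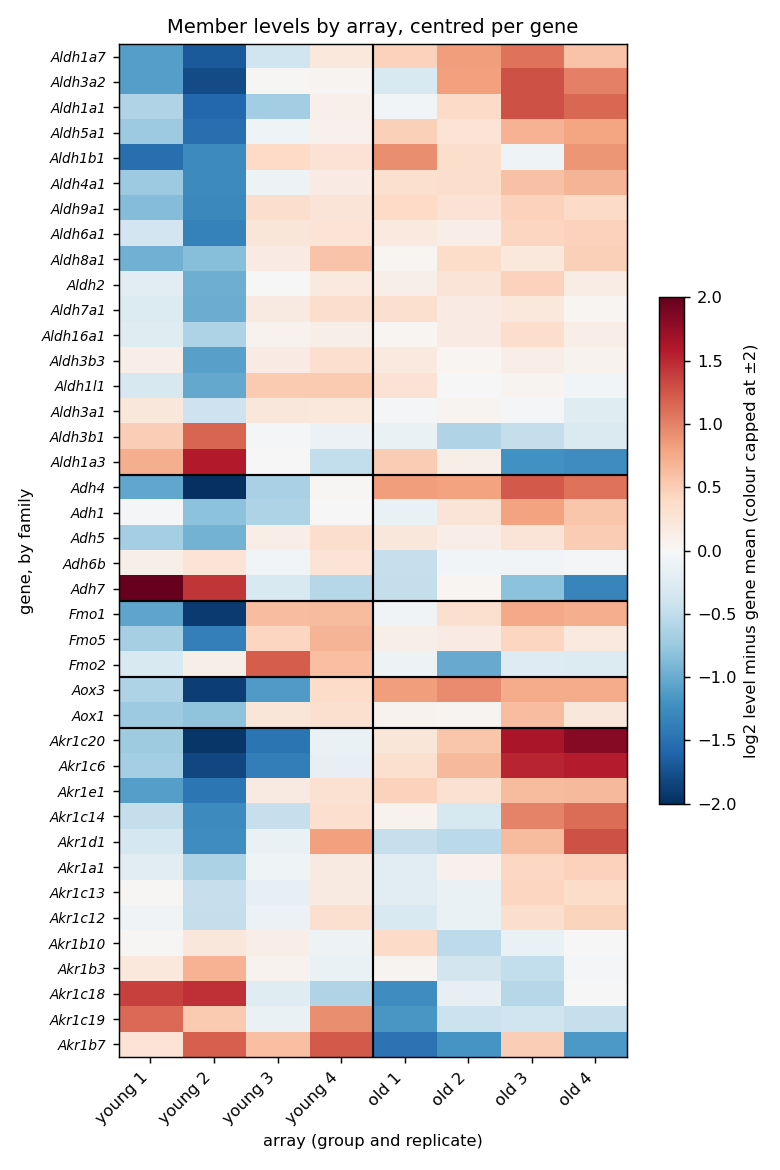
Log2 level of the tested members described here in each array minus the gene's mean over the 8 arrays, with the colour capped at ±2 and lines between families and ages. Young replicates 1 and 2 are blue for most Aldh genes (family means -0.44 and -0.88), and Akr1c6 and Akr1c20 are red in old replicates 3 and 4.

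Genes known from the hepatocytes around the central vein moved with several of these values. Of 14 tested pericentral genes, 13 had positive differences and 1 passed, with a median of 1.80 (1.24 without young replicates 1 and 2). Their centred mean was -0.93, -1.44, -0.57 and -0.59 in the young arrays and -0.29, 0.51, 1.68 and 1.63 in the old ones, which places old replicates 3 and 4 highest as for Akr1c6 and Akr1c20. Of 12 periportal genes 6 were positive, with a median of -0.02 that was -0.53 without those arrays. Of 13 male-biased genes 10 were positive and 1 passed, with a median of 0.44 that turned to -0.18 without them. Of 6 tested female-biased genes 3 were positive, with a median of 0.33 (0.02 without them). Of 14 tested NRF2 targets outside the families, 1 was positive and 0 passed, with a median of -0.77 (-0.41 without them). Adipocyte markers had 6 of 7 positive differences, with Cidea past the threshold and a median of 0.25 (-0.003 without young replicates 1 and 2). Their summed level was 6.36 to 7.25 in young and 7.15 to 8.73 in old livers, and Adipoq, Retn and Ucp1 did not pass the filter. After Cidea, the largest adipocyte differences were those of Cfd (3.47) and Cidec (1.02). Lep (0.25), Plin1 (0.10) and Lipe (0.08) had smaller ones, and Fabp4 a negative one (-0.52). Erythroid markers were highest in young replicates 1 and 2, with 1 of 5 positive, a summed level of 9.06 to 10.6 in young and 7.51 to 9.85 in old livers (1 marker not tested), and their median was -1.08 (0.16 without those arrays). B and plasma cell markers summed to -0.91 to 0.30 in young and 0.62 to 2.35 in old livers (3 of 4 positive, median 0.56, or 0.10 without those arrays), with Ms4a1, Cd79a and Mzb1 not tested. The share of these cell types and zones in the members' values was not tested.

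Related enzymes outside the families were read from 6 lists with 81 genes, of which 79 were tested and 0 passed by limma. At an unadjusted p under 0.05, 16 were higher and 1 lower. Differences were positive in 57, with a median of 0.39 that was 0.01 without young replicates 1 and 2. Retinoid genes, which use the products of Adh and Aldh1 enzymes, had 12 of 18 positive. Cyp26a1, which breaks down retinoic acid, read -0.28, -0.63, -0.06 and 0.12 in young and 0.70, 0.76, 2.02 and 2.04 in old livers (1.59, SE 0.36, adjusted p = 0.135). Its groups did not overlap, and the difference was 1.35 without young replicates 1 and 2.

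Carbonyl and short-chain reductases had 11 of 18 positive differences, among them Dhrs1 (0.81, SE 0.24) and Dhrs7 (0.84, SE 0.27), both without overlap. Without young replicates 1 and 2 these were 0.46 and 0.65. Aldehyde supply and disposal genes had 12 of 16 positive, with Agxt2 at 1.04 (0.51 without them) and Sord, which oxidises the sorbitol made by Akr1b3, at 0.94 (0.66). Bile acid and steroid genes had 10 of 11 positive and a median of 0.57, which was -0.27 without young replicates 1 and 2. Cyp8b1, of bile acid synthesis, differed by 1.51 (SE 0.65) and Hsd17b2 by 0.62 in that list, or 0.27 and 0.28 without them. Quinone and amine enzymes had 8 of 11 positive, with the monoamine oxidase Maob at 0.84 and Nqo2 at 0.72. Without them the list's median went from 0.20 to -0.08, and these genes were at 0.15 and 0.31. In the molybdenum cofactor list Gphn differed by 0.69 and Mocs2 by 0.52, or 0.07 and 0.02 without them.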

How the data were processed

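Each of the 8 liver RNA samples was read on 1 single-colour Agilent array. Spot intensity was background-corrected by Feature Extraction 10.7.3.1, per the file headers, though version 9.1 stands in the submitters' processing notes. A table of intensity that the authors deposited beside the scanner output matched the processed signal within 1% for 100% of 56605 probes, so it held no scaling between arrays. It served as an alternative, and held 0 columns of other samples.

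Outlier spots (59 to 97 per array) were left out, the log2 processed signals of a probe's spots were averaged, and the array's 75th percentile (154.7 to 352.8 intensity units) was subtracted. No spot was saturated. Groups were compared with limma 3.58.1 (lmFit, eBayes) in R 4.3.3 over 17565 genes, with Benjamini-Hochberg adjustment over all of them. The number of arrays limits the precision. The fit was tested on simulated data.

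The members and lists were chosen with earlier results of these data known. Some results are not reported here. Values per array are given for the 3 genes of each family with the smallest p and for 15 fixed enzymes, beside a few others named with their values known. Of the related genes, the 2 per list with the smallest p are named where reported. Promoters came from a RefSeq table that held 32 of the 41 tested members, and probe positions from the array files (mm9). Alternatives covered scaling, background correction (normexp, offset 50), dim-probe filters, probe averaging, variance prior, array weights, outlier spots, the deposited table, the replicate number as a block and omission of arrays.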

Additional observations from a re-analysis of the deposited data

Results flagged for a closer look

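Over 92 groups of 4 values (41 members and 5 family means in each age), 5 (5.43%) held an array that stood away from its group, where chance alone gives about 1 in 20. Young replicate 2 was the lowest for Aldh3b3 at -1.24 and for Aldh3a1 at 0.79. Old replicate 1 was the lowest for Adh6b at 1.21 and for Akr1c19 at 3.92. Old replicate 3 was the highest for Akr1b7 at -2.83. The check finds 1 array apart from 3, and cannot find 2 arrays that stand apart together, as young replicates 1 and 2 did.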

How the results depend on the processing

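Of 938 member values under alternatives, 917 kept direction and side of the threshold, 6 passed it (among them Adh4 in 2, and Aox3 and Akr1b7 in 1 each) and 15 turned sign. Without young replicates 1 and 2 the turned values were -0.0077 for Akr1c12, -0.12 for Akr1d1, -0.45 for Aldh1l1, -0.14 for Aldh3b3, -0.074 for Aldh7a1, -0.10 for Aldh8a1, -0.033 for Aox1, -0.19 for Fmo1 and -0.33 for Fmo5. With array weights they were -0.36 for Aldh1l1, -0.093 for Aldh3b3 and -0.14 for Fmo5. With 1 array omitted, differences ran from -0.17 to 0.34 for Aldh1l1, from -0.11 to 0.37 for Aldh3b3 and from -0.28 to 0.016 for Akr1b10. Members called numbered 2 with array weights, 1 without young replicates 1 and 2 and 0 to 2 with 1 array omitted. Related genes called were 1 (Lrat) with array weights and 0 to 1 with 1 array omitted. Members without overlap and higher were 5 under median scaling, 12 under quantile normalization (with or without normexp) and 8 to 12 with 1 array omitted. Those lower were 8, and negative members 21, without young replicates 1 and 2, and 3 to 5 were lower without overlap with 1 array omitted. The Aldh and Adh medians were 0.16 and 0.15 with array weights and 0.075 and 0.031 without young replicates 1 and 2, and that of Adh ran from 0.34 to 0.77 with 1 array omitted.

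Over all genes 58 were higher and 5 lower. Higher genes were 20 with signal required on all 8 arrays, 136 with array weights, 12 without young replicates 1 and 2 and 25 to 69 with 1 array omitted. Lower genes were 8 with quantile normalization, 13 with median scaling, 8 with no filter, 1 with signal on all 8 arrays, 9 with signal on all arrays of a group, 9 with the mean of probes, 8 with a trended prior, 36 with array weights, 2 without young replicates 1 and 2 and 2 to 14 with 1 array omitted. Median scaling shifted the median of all genes by -0.10. The replicate number as a block gave 53 higher and 17 lower genes and 0 members. Same-numbered samples correlated in their deviations by 0.03 to 0.14, and not all 4 were above 0.1. Of the young samples 3 of 4, and of the old samples 2 of 4, correlated best with their own number, a hint from the data only. The cause of these changes was not tested.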
